A study of Homo sapiens with 4 samples.

Results

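The mTORC1 and amino-acid sensing components are 34 genes chosen by name. They hold the Rag GTPases RRAGA and RRAGB, genes of the Ragulator, GATOR1, GATOR2 and KICSTOR complexes, the sestrins SESN1 and SESN3, and SLC38A9. They also hold the TSC complex with RHEB, the mTORC1 core, and the S6 kinases, 4E-BPs and EIF4E. The sestrin SESN2 is outside the set. All 34 are listed among the 17755 genes of the deposited expression table. They were measured by RNA-Seq in A375 and SK-MEL-28, which are established human melanoma cell lines. Each line was transfected with a control siRNA (siNC) or with siRNA against the long non-coding RNA LINC00622 (siLINC00622), kept for 6 h without serum and then for 24 h with serum. The study asked which transcripts depend on LINC00622 in melanoma cells. There is 1 library per line and treatment, 4 in all, so within a line no difference has a replicate check. Library totals ran from 31269923 to 36384819 counts.

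mTORC1 is a kinase complex on the lysosome that couples growth to nutrients. Amino acids act through the Rag GTPases, which sit on Ragulator and bring mTORC1 to the lysosome surface, where the GTPase RHEB switches the kinase on. GATOR1 turns the Rags off, GATOR2 restrains GATOR1, KICSTOR holds GATOR1 on the lysosome, sestrins and SLC38A9 report amino acids, and the TSC complex turns RHEB off. The active kinase phosphorylates S6 kinases and 4E-BPs, which set the rate of protein synthesis. The pathway is controlled mostly on proteins, and the libraries measure transcripts only. In these bulk samples, fewer cells that express a transcript and less of it per cell cannot be told apart.

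The targeted RNA was lower in both siLINC00622 libraries. LINC00622 had 309 counts in the siNC library of SK-MEL-28 and 135 after knockdown, where A375 had 135 and 86. The 8 melanocyte lineage markers summed to 8644 and 9076 CPM in SK-MEL-28 but to 548 and 675 CPM in A375, so the lines differed in pigment cell transcripts. SOX10 was the exception, at 623 and 613 CPM in SK-MEL-28 against 483 and 608 in A375, where it made up most of the sum. Leukocyte and endothelial markers were not listed at all, and 2 of 5 keratinocyte and 1 of 4 fibroblast markers were listed at summed levels of at most 70.7 and 26.1 CPM.

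An siRNA can also pair through its seed, bases 2 to 8 of its guide strand, with short sites in other transcripts. The study lists 2 siRNAs against LINC00622 and its text does not say which was sequenced. Their target strands are shown because the seed sites fall in some of the genes described here. Capitals mark the 7 bases that pair with the seed.

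siLINC00622_1: ccctaaagaaaGTGAGAAa

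siLINC00622_2: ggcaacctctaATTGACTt

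The longest 3′ UTR annotated in GENCODE 29 held the site of siLINC00622_1 in 3 of 34 genes (8.82%), against 14.5% of 12365 genes of the table. The site of siLINC00622_2 was in 4 of 34 (11.8%), against 11.6%. The 3′ UTRs of the 34 genes had a median of 881 bases, and those of the 12365 genes 1379. The sites of MTOR and SESN3, the genes of the set with the lowest ratios in SK-MEL-28, are shown with their flanks on the transcript's strand, followed by those of TSC2 and RHEB. The GRCh38 position is that of the capitals.

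MTOR, chr1:11107398-11107404, minus strand: gaaaccatgGTGAGAAagtttgact

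SESN3, chr11:95170428-95170434, minus strand: caagtgtacGTGAGAAaagcacatg

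SESN3, chr11:95170747-95170753, minus strand: cctagaaaaATTGACTtctgcaggt

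TSC2, chr16:2088729-2088735, plus strand: agctcttttATTGACTttgtctgct

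RHEB, chr7:151466041-151466047, minus strand: aatgttaccATTGACTttattaata

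SESN3 had a further site of siLINC00622_2, WDR59 had 1, and EIF4E had 2 sites of siLINC00622_1. The EIF4E sites lie 4191 and 8219 bases into a 3′ UTR of 9344 bases, while the table's own values imply a counted length of 4.97 kb for this gene. By that length the UTR was not counted whole, and whether the parts with the sites were counted is not known.

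Levels were compared between genes in FPKM, which is scaled for gene length. The median of the 34 genes was 7.08 FPKM in the SK-MEL-28 siNC library and 8.01 in the A375 siNC library, against 2.79 and 3.02 over all genes. In each library 27 or 28 of the 34 were above the median of all genes. EIF4EBP1 (4E-BP1), which blocks the cap-binding protein EIF4E until mTORC1 phosphorylates it, was the highest of the set in each library. It stood at 125 and 124 FPKM in SK-MEL-28, against 153 and 164 in A375, in the order siNC, siLINC00622 that is used throughout. This rank depends on its implied length of 0.88 kb. By CPM, without length scaling, MTOR was above EIF4EBP1 in SK-MEL-28 (364 against 110 with siNC). In A375 TSC2 was above it (188 against 135 CPM with siNC).

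**Figure D1:**
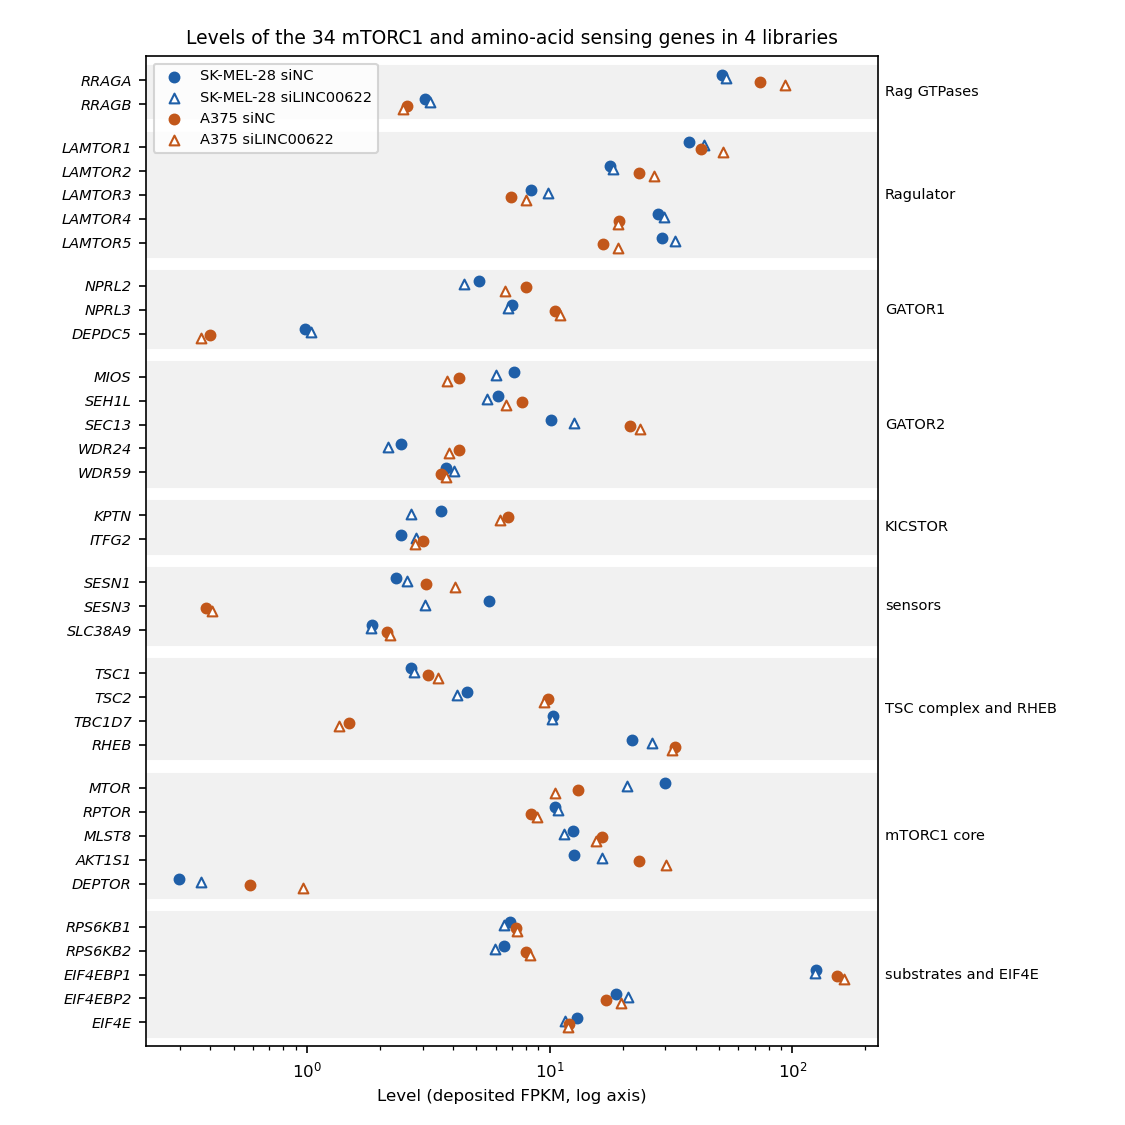
Level of each of the 34 genes (FPKM, log axis) in the 4 libraries, grouped by complex. Circles are siNC and triangles siLINC00622, with SK-MEL-28 in blue and A375 in orange. EIF4EBP1 lies furthest right, and SESN3 and TBC1D7 show the widest gaps between the lines.

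Several complexes were uneven in their transcripts. Of the Rag GTPases, RRAGA made up 94.4% of the summed FPKM of RRAGA and RRAGB in both SK-MEL-28 libraries, and 96.6% and 97.4% in A375. RRAGA was at 51.5 and 53.5 FPKM in SK-MEL-28, against 73.5 and 92.9 in A375. RRAGB was at 3.06 and 3.202, and at 2.58 and 2.49. RRAGA lay above RRAGB in each library by at least 16.7-fold.

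In Ragulator, the lysosomal scaffold of the Rags, LAMTOR1, its membrane anchor, was the highest at 37.4 and 43.3 FPKM in SK-MEL-28, against 42.1 and 52.0 in A375. LAMTOR3 was the lowest at 8.39 and 9.88, and at 6.96 and 8.01. LAMTOR2, LAMTOR4 and LAMTOR5 lay between 16.6 and 32.9 FPKM.

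In GATOR1, NPRL3 was the highest with 6.99 and 6.71 FPKM in SK-MEL-28, against 10.57 and 11.05 in A375. DEPDC5, the subunit that binds the Rags, was the lowest with 0.984 and 1.04, and 0.3996 and 0.365. By FPKM, DEPDC5 was thus 0.141 and 0.156 of NPRL3 in SK-MEL-28, against 0.0378 and 0.0330 in A375. The FPKM values imply lengths of 17.9 kb for DEPDC5 and 6.43 kb for NPRL3, on which such ratios depend. Without length scaling, DEPDC5 was at 17.6 and 18.7 CPM in SK-MEL-28, against 44.9 and 43.1 for NPRL3. In A375 DEPDC5 was at 7.16 and 6.54 CPM, against 67.9 and 71.0 for NPRL3. These ratios between genes, like those given below, were chosen after the values were seen.

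In GATOR2, SEC13, which also serves in the COPII coat and the nuclear pore, led with 10.1 and 12.6 FPKM in SK-MEL-28, against 21.5 and 23.5 in A375. WDR24 was the lowest on average with 2.43 and 2.16, and 4.23 and 3.85. Of its exon bases in GENCODE 29, 35.7% lie under a gene on the other strand, and the library kit does not keep the strand, so reads of both cannot be told apart. Overlap with other genes took 18.7% of the exon bases of ITFG2, 18.4% of LAMTOR4, 17.5% of LAMTOR5 and 15.3% of TBC1D7, and under 5% in 21 of the 34 genes.

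The S6 kinases, which phosphorylate ribosomal protein S6, were even: RPS6KB1 made up between 46.9% and 52.1% of the summed FPKM of RPS6KB1 and RPS6KB2. The sestrins SESN1 and SESN3 were not. SESN1 was 29.2% and 45.7% of SESN1 plus SESN3 in SK-MEL-28, against 89.0% and 90.9% in A375. This share leaves out SESN2, which was at 1.95 and 1.82 FPKM in SK-MEL-28, against 7.91 and 8.14 in A375. In A375 SESN2 was above SESN1, which was at 3.10 and 4.09 FPKM. EIF4EBP1 was between 85.49% and 89.96% of EIF4EBP1 plus EIF4EBP2. Without length scaling, by CPM, its share was between 40.9% and 51.3%, and the length that the FPKM implies for EIF4EBP1 differs from GENCODE 29 by 17.99%.

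**Figure D2:**
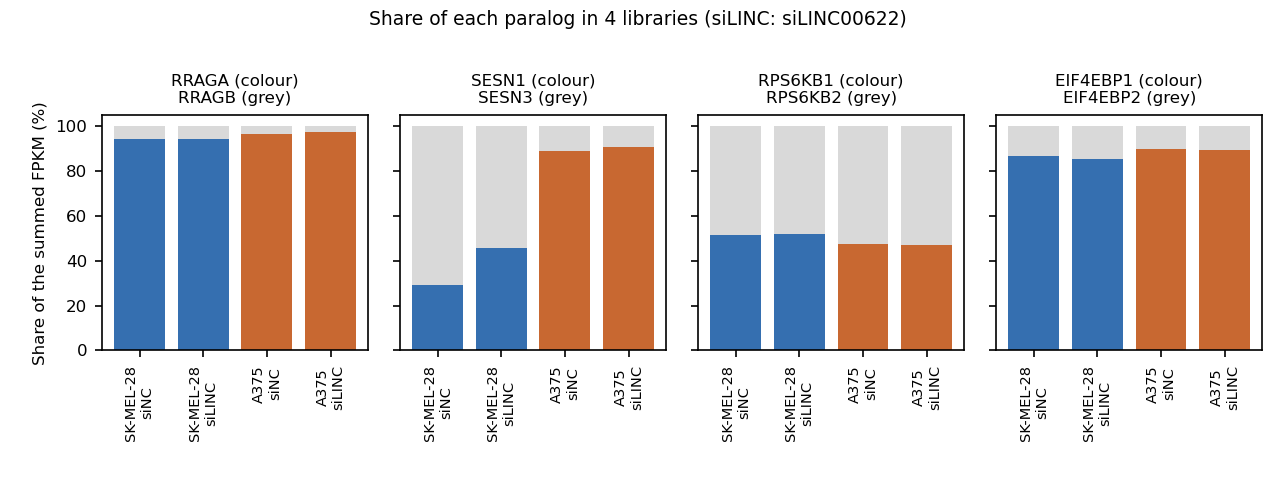
Share of the summed FPKM (%) taken by the first gene of each paralog pair (colour) and the second (grey) in each of the 4 libraries, on an axis from 0 to 100%. In the sestrin pair SESN1 stands at 29.2% and 89.0% in the siNC libraries of SK-MEL-28 and A375, and the other pairs differ less between the lines.

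The lines differed more than the treatments did. A fit of all 4 libraries with the treatment as covariate (edgeR quasi-likelihood test, 1 residual degree of freedom, Benjamini-Hochberg adjustment over 16258 genes) called 11 of the 34 genes higher and 12 lower in SK-MEL-28. Over all genes 33.8% were called higher and 35.1% lower, so the share of the set called was close to that of the table. The median difference was -0.09 on the log2 scale for the set and -0.03 for all genes. Scaled by library totals in place of TMM, the split was 9 higher and 17 lower, where 28.3% and 41.4% of all genes were called. DESeq2 called 10 higher and 6 lower, where it called 27.4% and 26.1% of all genes. With the treatment as the only difference between the 2 libraries of a line, the p-values rest on how far the treatments differ between lines and not on replicate cultures. The edgeR test also draws on the spread of other genes, with a median of 5.43 prior degrees of freedom beside the 1 residual. Its p-values therefore do not measure the spread of each gene alone. The melanocyte lineage markers given above, SOX10 apart, differed widely between the same libraries, and their part in these differences was not tested.

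SESN3, a stress-induced sestrin that restrains mTORC1, differed most among the 34. Its counts were 1975 and 1106 in SK-MEL-28, against 127 and 157 in A375, or 5.64, 3.06, 0.384 and 0.408 FPKM. The lower SK-MEL-28 library was still above both A375 libraries. By CPM, the libraries of the lines did not overlap in 85.3% of the 34 genes and in 83.3% of 16742 genes. The fitted log2 difference of SESN3 was 3.55 (SE 0.23, edgeR adjusted p = 2.5e-05). SESN1, the p53-induced sestrin, was lower in SK-MEL-28, with 2.32 and 2.58 FPKM against 3.10 and 4.09 (log2 difference -0.38, SE 0.13, edgeR adjusted p = 0.041).

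TBC1D7, the third subunit of the TSC complex, was at 10.4 and 10.3 FPKM in SK-MEL-28, against 1.49 and 1.35 in A375. Its fitted difference was 3.02 (SE 0.11, edgeR adjusted p = 2.1e-06). PHACTR1, which overlaps some of its exons on the other strand, also had more counts in SK-MEL-28, 1173 and 1901 against 47 and 109, and its part in the TBC1D7 counts was not tested. TSC2, the GTPase-activating subunit, went the other way at 4.55 and 4.17 FPKM against 9.83 and 9.49 (log2 difference -0.98, SE 0.09, edgeR adjusted p = 9.3e-05). TSC1, the scaffold subunit, was at 2.69 and 2.77 against 3.15 and 3.48 FPKM and was not called (log2 difference -0.11, SE 0.10). TBC1D7 transcripts were 3.85 and 3.71 times those of TSC1 in SK-MEL-28, against 0.474 and 0.389 times in A375.

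MTOR, the kinase itself, was at 30.0 and 20.8 FPKM in SK-MEL-28, against 13.03 and 10.5 in A375. The groups did not overlap, which by CPM also held for 83.3% of 16742 genes. The fitted difference of MTOR was 1.26 (SE 0.09, edgeR adjusted p = 4.4e-05). RPTOR (raptor), which recruits substrates, was at 10.6 and 10.8 against 8.36 and 8.88 FPKM (log2 difference 0.48, SE 0.09, edgeR adjusted p = 0.0028). The inhibitory subunit AKT1S1 (PRAS40) was lower in SK-MEL-28, at 12.6 and 16.5 against 23.4 and 30.1 FPKM (log2 difference -0.71, SE 0.09, edgeR adjusted p = 3.8e-04). By FPKM, MTOR was therefore 2.37 and 1.26 times AKT1S1 in SK-MEL-28, against 0.557 and 0.350 times in A375. Without length scaling, MTOR was at 364 and 253 CPM in SK-MEL-28, against 72.5 and 94.6 for AKT1S1. In A375 MTOR was at 159 and 128 CPM, against 134 and 173 for AKT1S1.

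DEPTOR, the other inhibitory subunit, was scarce in both lines. It had 26 and 33 counts in SK-MEL-28, against 48 and 92 in A375, which is 0.299, 0.368, 0.584 and 0.963 FPKM (log2 difference -1.03, SE 0.25, edgeR adjusted p = 0.010). MLST8, which binds the kinase domain, was at 12.5 and 11.5 against 16.4 and 15.6 FPKM (log2 difference -0.25, SE 0.09, edgeR adjusted p = 0.0495). The core thus held 2 genes called higher and 3 called lower in SK-MEL-28. MLST8 was called in 4 of the 8 fits, and DEPTOR in 6 of the 7 that kept it, with DESeq2 adjusted p-values of 0.1998 and 0.291.

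**Figure D3:**
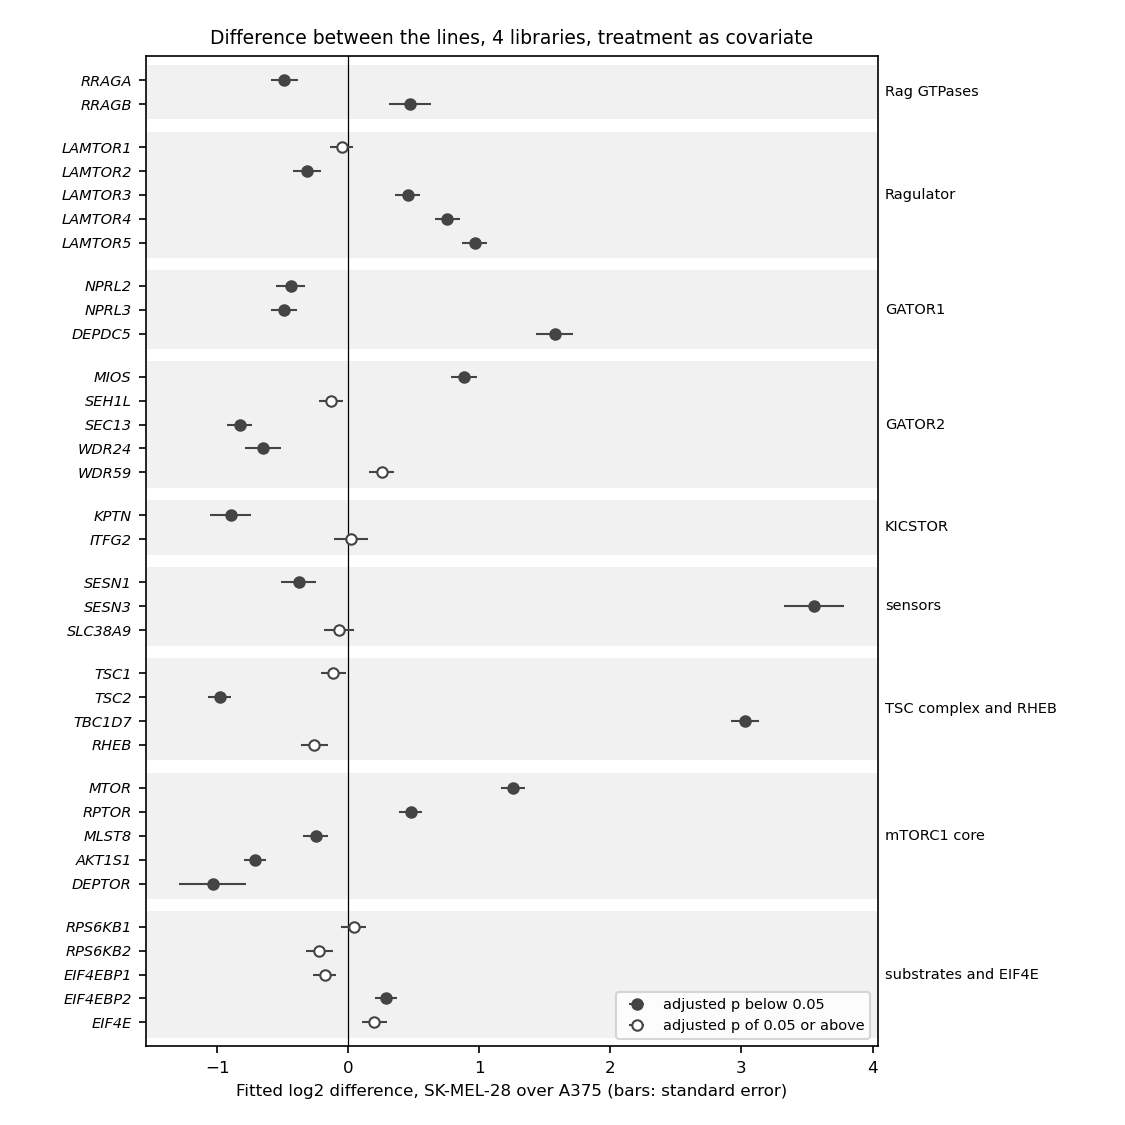
Fitted log2 difference of SK-MEL-28 over A375 for each of the 34 genes, with its standard error, from the fit of all 4 libraries. Filled points passed an adjusted p of 0.05: 11 to the right of 0 and 12 to the left, with SESN3 and TBC1D7 past 3.

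GATOR1 was split as well. DEPDC5 was higher in SK-MEL-28 by 1.58 (SE 0.14, edgeR adjusted p = 9.7e-05), while NPRL2 (5.12 and 4.44 against 8.02 and 6.57 FPKM) and NPRL3 were lower by fitted log2 differences of -0.44 and -0.49. In GATOR2, MIOS was higher, at 7.16 and 6.03 against 4.25 and 3.77 FPKM (log2 difference 0.88, SE 0.10). SEC13 and WDR24 were lower, with log2 differences of -0.83 and -0.65, and SEH1L (-0.13) and WDR59 (0.25) were not called. Of KICSTOR, KPTN was lower, at 3.57 and 2.70 against 6.71 and 6.28 FPKM (log2 difference -0.90, SE 0.16). ITFG2 was at 2.45 and 2.81 against 3.02 and 2.80 FPKM and was not called (0.02, SE 0.13).

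In Ragulator 3 genes were called higher and 1 lower in SK-MEL-28. LAMTOR5 was at 29.1 and 32.9 against 16.6 and 19.1 FPKM (log2 difference 0.96, SE 0.09), LAMTOR4 at 28.0 and 29.7 against 19.3 and 19.1 (0.76, SE 0.10), and LAMTOR3 differed by 0.45 (SE 0.10). LAMTOR2 was at 17.7 and 18.3 against 23.4 and 26.8 FPKM (-0.31, SE 0.10), and LAMTOR1 was not called (-0.05, SE 0.09). The Rags differed in opposite directions, with RRAGA at -0.49 (SE 0.10) and RRAGB at 0.47 (SE 0.16).

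Of the 5 substrates and EIF4E genes 1 was called between the lines, EIF4EBP2, at 18.8 and 21.1 FPKM in SK-MEL-28 against 17.1 and 19.6 in A375 (log2 difference 0.29, SE 0.08, edgeR adjusted p = 0.020). RPS6KB1 (0.04), RPS6KB2 (-0.22), EIF4EBP1 (-0.18) and EIF4E (0.20) were not called. Neither were RHEB (-0.26) and the lysosomal arginine sensor SLC38A9 (-0.07). RPS6KB1 was at 6.89 and 6.50 FPKM in SK-MEL-28 against 7.27 and 7.34 in A375, and SLC38A9 at 1.85 and 1.84 against 2.15 and 2.21. Past 1.5-fold in the same fit were 7 genes of the set on the higher side and 6 on the lower, against 27.7% and 29% of all genes.

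With siLINC00622, changes in the set were small. The fit across both lines, with the line as covariate (edgeR quasi-likelihood test), called 0 of the 34 genes higher and 0 lower, where 0.08% of 16258 genes were called higher and 0.148% lower. The targeted LINC00622 was not called by this fit either (log2 change -1.05, SE 0.20, edgeR adjusted p = 0.113). At an unadjusted p under 0.05 the fit held 5 of the 34, beside 2374 of 16258 genes. DESeq2 called 1 of the 34 higher and 1 lower, where it called 0.929% and 0.996% of all 16258 genes, and limma on FPKM called 0. RRAGB, DEPDC5, WDR24, KPTN, SESN1, DEPTOR and LINC00622 got no adjusted p from DESeq2, so it could not call them. No gene of the set was past 1.5-fold in this fit (0 of 34), where 3.19% of all genes were higher and 2.98% lower by that fold. The median fitted change was 0.05 in the set and 0.01 over all genes.

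Within a line, 1 gene of the set was past 1.5-fold in each. In SK-MEL-28 it was SESN3, lower with siLINC00622, where 6.49% of 15442 genes were lower and 4.56% higher by that fold. In A375 it was DEPTOR, on the higher side, where 4.52% of 16021 genes were higher and 4.34% lower. The counting interval (95%, Clopper-Pearson) left out 0 for 19 of 34 genes in SK-MEL-28, against 17 in A375, beside 46.9% and 45.9% of all genes. These intervals cover counting error only, since each condition has 1 library and the spread between cultures was not measured. They treat reads as independent molecules, which reads without molecular identifiers are not, so they can be too narrow even for that error.

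**Figure D4:**
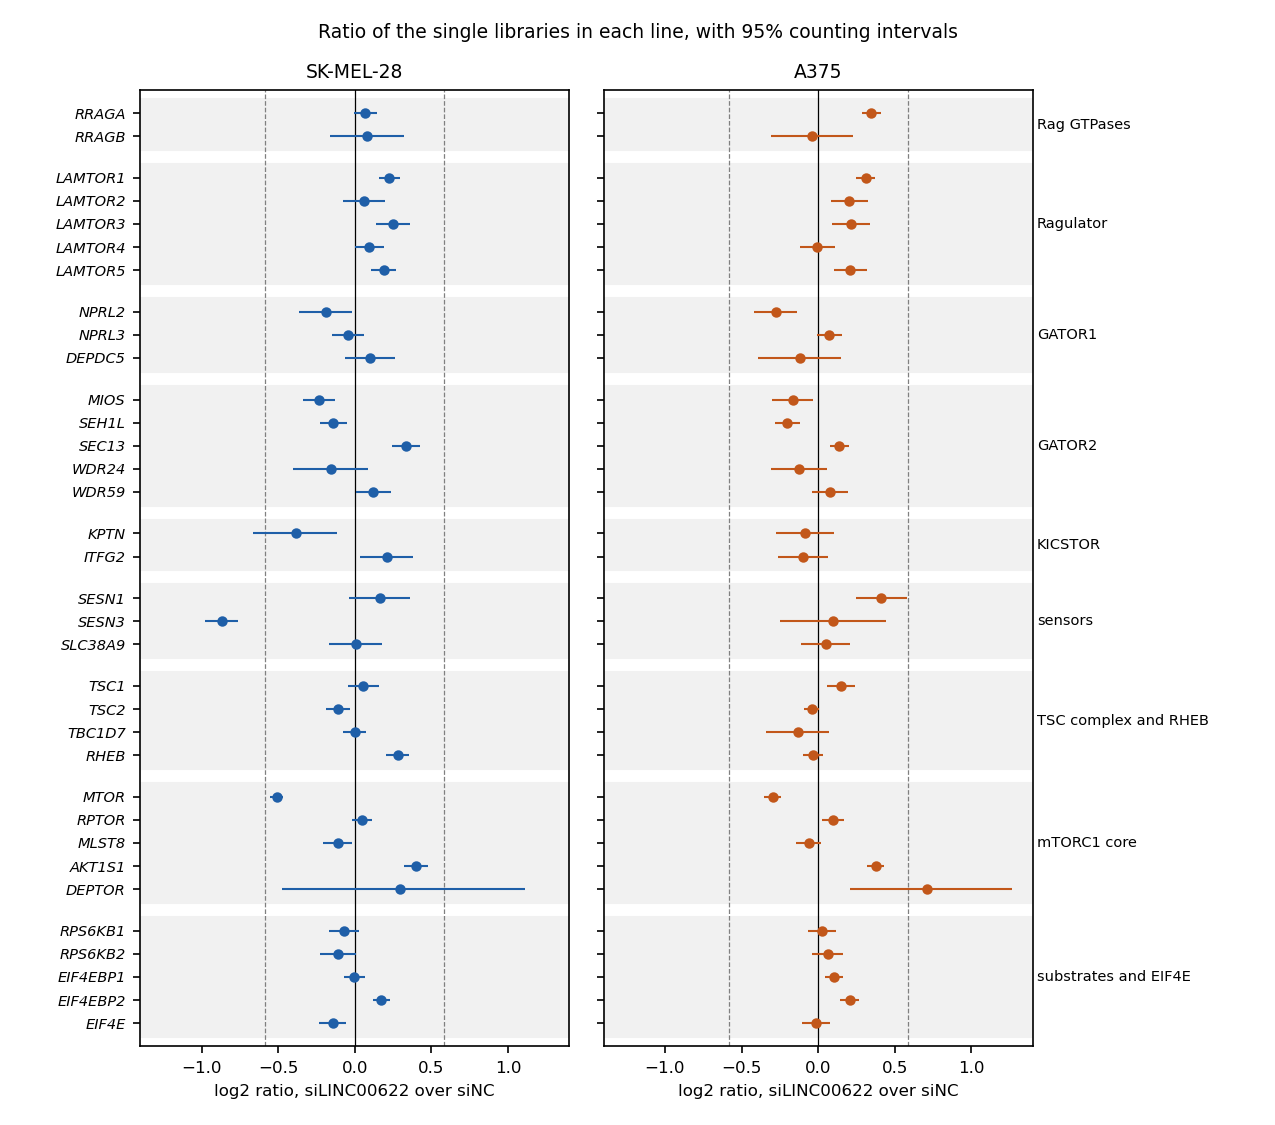
Log2 ratio of the siLINC00622 over the siNC library for each of the 34 genes in SK-MEL-28 (left) and A375 (right). Bars are 95% counting intervals and dashed lines mark 1.5-fold; SESN3 lies past the line in SK-MEL-28 and DEPTOR in A375.

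SESN3 went from 1975 to 1106 counts between the SK-MEL-28 libraries, giving -0.87 as log2 ratio (interval -0.98 to -0.76). In A375 it went from 127 to 157 counts, a ratio of 0.10 (interval -0.25 to 0.45). The intervals of the lines are apart, and the A375 one includes 0. Its transcript carries 1 site of siLINC00622_1 and 2 of siLINC00622_2, and the part of these sites in the ratio was not tested.

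MTOR was lower with siLINC00622 in both lines. Its counts were 12062 and 8650 in SK-MEL-28, giving a ratio of -0.51 (interval -0.55 to -0.47), and 4957 and 4662 in A375, where the siLINC00622 library was the deeper, a ratio of -0.30 (interval -0.36 to -0.24). The fitted change was -0.40 (SE 0.09, edgeR adjusted p = 0.141), and the DESeq2 adjusted p was 0.047. The alternatives with edgeR or limma did not call it. The transcript carries the site of siLINC00622_1 printed above, 81 bases into its 3′ UTR, whose part in the change was not tested.

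AKT1S1 was the mirror case, higher in both lines. It went from 2400 to 3231 counts for SK-MEL-28 (log2 ratio 0.40, interval 0.32 to 0.47) and from 4195 to 6288 in A375 (0.37, interval 0.32 to 0.43). The fitted change was 0.40 (SE 0.09, edgeR adjusted p = 0.129), and the DESeq2 adjusted p was 0.042.

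Of the rest of the core, RPTOR was at 0.05 (SK-MEL-28) and 0.10 (A375), and MLST8 at -0.11 and -0.06. DEPTOR went from 26 to 33 counts between the SK-MEL-28 libraries, a ratio of 0.29 whose interval of -0.47 to 1.11 includes 0, and from 48 to 92 in A375, a ratio of 0.71 (interval 0.21 to 1.26). At such counts a 1.5-fold change in SK-MEL-28 could not be told from none.

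Ragulator had the highest median of the complexes in both lines, 0.19 in SK-MEL-28, against 0.21 in A375 over 5 genes. All 5 were on the higher side in SK-MEL-28 and 4 of 5 in A375, where LAMTOR4 was at -0.01 and on the higher side when all 4 libraries were scaled together. The counts of LAMTOR1 were 3330 and 3979 for SK-MEL-28 (log2 ratio 0.23, interval 0.16 to 0.29) and 3542 and 5082 in A375 (0.31, interval 0.25 to 0.37). LAMTOR1 had a fitted change of 0.28 (SE 0.09, edgeR adjusted p = 0.227). LAMTOR3 was at 0.25 and 0.21 and LAMTOR5 at 0.19 and 0.21, with intervals that leave out 0. LAMTOR2 was at 0.06 and 0.20.

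RRAGA was at 0.07 (interval -0.01 to 0.15) for SK-MEL-28 and 0.35 in A375 (interval 0.29 to 0.41). RRAGB was at 0.08 and -0.04, and both of its intervals include 0. RRAGC and RRAGD, the partners with which RRAGA and RRAGB pair, are outside the set. RRAGC was at 0.02 and -0.14 with intervals that include 0. RRAGD, the gene that the study picked from these samples, went from 3313 to 731 counts for SK-MEL-28 and from 515 to 234 in A375. RRAGA was thus 2.62 and 12.8 times RRAGD by FPKM in the SK-MEL-28 libraries, and 22.7 and 73.6 times in those of A375.

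The GATOR complexes had medians near or below 0. In GATOR1, NPRL2 was lower in both lines, at -0.19 (interval -0.36 to -0.02) and -0.28 (interval -0.42 to -0.14), while NPRL3 (-0.04 and 0.07) and DEPDC5 (0.10 and -0.12) had intervals that include 0. In GATOR2, MIOS was at -0.23 and -0.17 and SEH1L at -0.14 and -0.20, and SEC13 was on the other side at 0.33 and 0.14, in each case with intervals that leave out 0. WDR24 (-0.16 and -0.12) and WDR59 (0.12 and 0.08) completed the complex. In KICSTOR, KPTN was at -0.39 in SK-MEL-28 (250 and 195 counts, interval -0.67 to -0.11) and at -0.09 in A375, and ITFG2 was at 0.21 and -0.10.

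Among the other regulators, SESN1 was at 0.16 (interval -0.03 to 0.36) for SK-MEL-28 and 0.41 in A375 (496 and 763 counts, interval 0.25 to 0.58). SLC38A9 was at 0.01 and 0.05. RHEB was at 21.95 and 26.4 FPKM in SK-MEL-28, a ratio of 0.28 (interval 0.20 to 0.35), and at 32.8 and 31.9 in A375, a ratio of -0.03. TSC1 (0.05 and 0.15), TSC2 (-0.11 and -0.04) and TBC1D7 (-0.0012 and -0.13) lay between -0.13 and 0.15.

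Ratios of the substrates were small. EIF4EBP2 was higher in both lines, at 0.17 and 0.20, with intervals that leave out 0. RPS6KB1 (-0.07 and 0.02), RPS6KB2 (-0.11 and 0.06), EIF4EBP1 (-0.0020 and 0.10) and EIF4E (-0.15 and -0.01) lay between -0.15 and 0.10.

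Across the lines 14 genes of the set were on the higher side in both, 10 on the lower side in both and 10 on opposite sides. With intervals that leave out 0 in both lines, 6 were higher (AKT1S1, LAMTOR1, LAMTOR3, LAMTOR5, SEC13 and EIF4EBP2), 4 lower (MTOR, NPRL2, MIOS and SEH1L) and 0 opposite. Of 14721 genes with enough counts in both lines, 11% were higher, 11.9% lower and 6.4% opposite in this sense. The 3 genes with a site of siLINC00622_1 had ratios of -0.87 (SESN3), -0.51 (MTOR) and -0.15 (EIF4E) in SK-MEL-28, where the 31 without it had a median of 0.06. In A375 they were at 0.10, -0.30 and -0.01, where the others had a median of 0.06. By its implied length, the EIF4E UTR with these sites was not counted whole. Ratios of the 1799 genes of the table with a site of siLINC00622_1 were not compared, and the part of the sites was not tested. The 4 genes with a site of siLINC00622_2 had medians of 0.01 and 0.02, and the 30 without it 0.05 and 0.06.

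**Figure D5:**
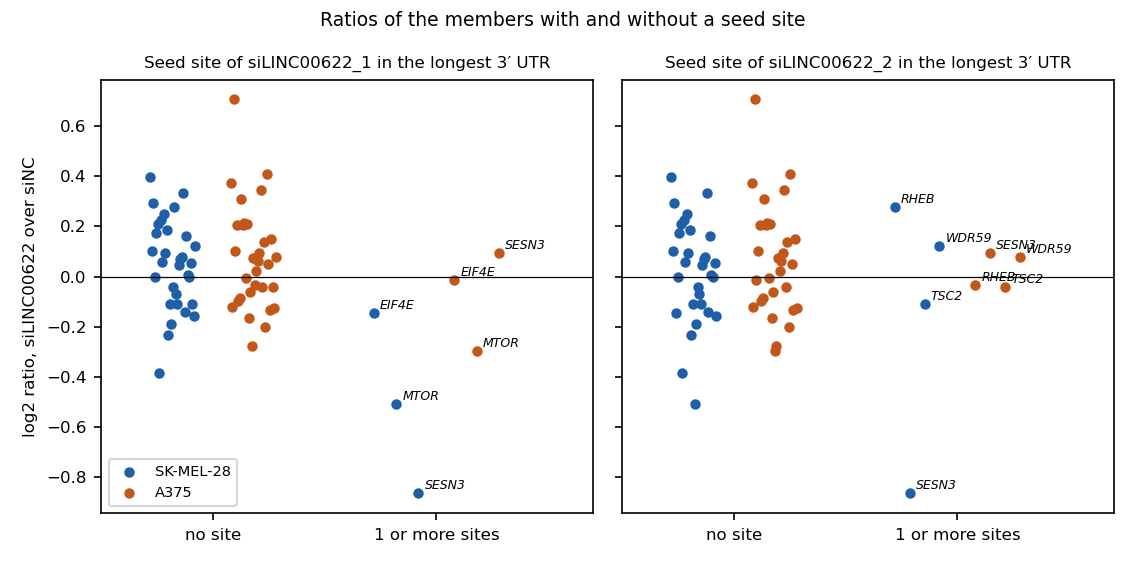
Log2 ratio of siLINC00622 over siNC for the genes of the set without and with a seed site of each siRNA, SK-MEL-28 in blue and A375 in orange. The 3 genes with a site of siLINC00622_1, SESN3, MTOR and EIF4E, lie at -0.87, -0.51 and -0.15 in SK-MEL-28. In A375 they lie at 0.10, -0.30 and -0.01.

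Promoters were read because TFEB and its relatives, which bind E-boxes, drive many lysosomal genes. RefSeq promoters (GRCh38.p14, 250 bases before to 50 after the start) were matched for 28 of the 34 genes. The E-box CACGTG, which reads the same on both strands, was in 6 of the 28 (21.4%), against 10.1% of 10728 promoters. GTCACGTG, which contains it and was searched on both strands, was in 4 of the 28 (14.3%), against 4.37%. The 4 were EIF4E, LAMTOR4, RRAGB and TSC2, and LAMTOR1 and NPRL3 held the shorter word alone. Windows from LAMTOR1, LAMTOR4 and TSC2 are shown to let the letters around CACGTG, in capitals, be compared.

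LAMTOR1, chr11:72103445-72103474, minus strand: ctttccccgcatCACGTGcttgcgtgtacg

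LAMTOR4, chr7:100148892-100148921, plus strand: agcggctgcaagCACGTGaccggggcctga

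TSC2, chr16:2047859-2047888, plus strand: atgcggccccgtCACGTGatgcaaggatcg

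These 3 promoters hold the word, and with siLINC00622 their genes were at 0.23, 0.09 and -0.11 in SK-MEL-28, against 0.31, -0.01 and -0.04 in A375. A match of letters is not a measured binding site.

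Of a list of 51 other genes of the pathway, 47 are listed and 46 were tested. The treatment fit called 0 higher and 1 lower, RRAGD (log2 change -1.82, SE 0.21, edgeR adjusted p = 0.049). That call was kept by DESeq2 (adjusted p = 2.1e-09) and by edgeR with no filter on low counts (adjusted p = 0.018). It was lost in 5 of 7 alternatives, with adjusted p-values from 0.0789 to 1.00. The log2 ratio of RRAGD was -2.21 (interval -2.33 to -2.10) in SK-MEL-28 and -1.34 (interval -1.58 to -1.12) in A375. The paper reports lower RRAGD RNA and protein after LINC00622 knockdown in both lines. DESeq2 also called SLC7A5 (log2 change 0.59, adjusted p = 0.038), which edgeR did not. SLC7A5, the light chain of the leucine transporter LAT1, was at 168 and 331 FPKM for SK-MEL-28 (log2 ratio 0.99, interval 0.97 to 1.012) and at 385 and 428 in A375 (0.16, interval 0.14 to 0.18). TFEB, which mTORC1 keeps out of the nucleus, went from 70 to 141 counts for SK-MEL-28 (0.96, interval 0.56 to 1.41) and from 41 to 52 in A375 (0.13, interval -0.49 to 0.76). BMT2 (SAMTOR), which senses S-adenosylmethionine, went from 899 to 559 counts for SK-MEL-28 (-0.71, interval -0.87 to -0.56). In A375 BMT2 went from 445 to 510 counts (-0.01, interval -0.20 to 0.17). RNF152, a ubiquitin ligase of RRAGA, went from 310 to 153 counts for SK-MEL-28 (-1.04, interval -1.34 to -0.77). In A375 RNF152 had only 50 and 57 counts (-0.02), and its interval of -0.59 to 0.56 is wide.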

How the data were processed

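Poly(A) RNA of 4 siRNA-treated melanoma cell samples was sequenced. The authors deposited 1 table per gene. Its counts, which the authors deposited as whole numbers without normalization, were used for all tests. The CPM values deposited are counts scaled to the library total, and the FPKM values deposited equal CPM divided by 1 length per gene. The TPM values that the authors deposited are rescaled FPKM and were used for paralog shares only. The authors' processing notes name HISAT, HISAT2, TopHat2, Bowtie2 and hg19, without versions or roles; the annotation is not given in the sources used here. Between 99.7% and 99.8% of counts fell on listed genes.

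Within a line, log2 ratios used TMM scaling and a prior count of 2, over genes where 1 of the 2 libraries reached 10 counts. Across lines, edgeR 4.0.16 in R 4.3.3 fitted line and treatment on genes passing filterByExpr, with a threshold of 0.05. Nothing says that the samples are separate cultures beyond their labels. DESeq2 1.42.0, limma 3.58.1 on log2(FPKM + 1), other scalings, filters, prior counts (0.5 and 8) and models were alternatives. The scripts were tested on simulated data. Positions, 3′ UTRs and exon overlaps are from GENCODE 29 on GRCh38, matched by gene identifier and not by position. The implied lengths differed from GENCODE 29 by more than 5% for EIF4E, EIF4EBP1 and NPRL2.

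The members and lists were chosen with earlier results of these data known. All 34 genes are named. Values per library are given for genes called in a fit, past 1.5-fold in a line with a counting interval without 0, or highest or lowest of a complex. Other genes are LINC00622, RRAGC, RRAGD and pathway genes that met the same limits, at most 12 by size of change.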

Additional observations from a re-analysis of the deposited data

How the results depend on the processing

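The labels number no replicates, so the libraries were paired by line only. The line is a term of the treatment fit, which sets the 2 libraries of each line against each other. With 1 library per condition, none could be left out of a within-line ratio. The count of genes called for the treatment, 37 (13 higher, 24 lower), moved most: DESeq2 called 313 (151 higher, 162 lower, of them 1 gene of the set in each direction), no filter 121 (57 and 64), DESeq2 size factors, library totals and limma 1 each (1 and 0), and at least 100 counts or no line term 0 (0 and 0). RRAGD was called with DESeq2 and with no filter, and not in the other 5.

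For the lines, DESeq2 called 10 genes of the set higher and 6 lower. Library totals moved the median of all genes from -0.03 to -0.20 and limma to -0.14, and both called 9 higher and 17 lower (4602 and 6738 of all genes with library totals, 4663 and 6844 with limma). The set's median was then -0.26 and -0.21, and -0.074 with DESeq2 or its size factors. Of the 23 genes called, 15 were called in all 8 fits (9 higher, 6 lower). DEPTOR, EIF4EBP2, LAMTOR2, MLST8, NPRL2, RRAGB, SESN1 and WDR24 were not.

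In A375, 0 genes were past 1.5-fold with FPKM + 1 and with at least 100 counts, a filter that removes DEPTOR. By CPM, without gene length, the paralog shares were 90.8%, 90.8%, 94.4% and 95.6% for RRAGA, 16.6%, 28.97%, 79.6% and 82.9% for SESN1, 58.4%, 59.0%, 54.6% and 53.9% for RPS6KB1, and 43.9%, 40.9%, 51.3% and 49.5% for EIF4EBP1, with both SK-MEL-28 libraries first. No called value changed sign in the alternatives run. Of values not called, 3 line differences (ITFG2, LAMTOR1 and RPS6KB1, none over 0.148 in size), 1 fitted treatment change (DEPDC5), 5 ratios within a line and 2 complex medians did. The causes of these moves were not tested.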

Other observations

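The list of other pathway genes was also read between the lines. Of the 46 tested, 16 had higher and 19 lower levels in SK-MEL-28 (edgeR quasi-likelihood test with Benjamini-Hochberg adjustment), where 33.8% and 35.1% of all genes were. PRKAA2, a catalytic subunit of AMPK, which restrains mTORC1 when energy is low, had 10 and 9 counts in SK-MEL-28, against 427 and 676 in A375 (log2 difference -5.64, SE 0.25). SESN2, the leucine-binding sestrin, was at 1.95 and 1.82 FPKM against 7.91 and 8.14 (log2 difference -1.92, SE 0.13), so that SESN2 and SESN3 lay on opposite sides.

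GRB10, a substrate of mTORC1 that damps insulin signalling, was at 14.3 and 14.6 FPKM against 1.59 and 1.42 (log2 difference 3.43, SE 0.11). FNIP2, a partner of folliculin, was at 11.6 and 13.6 against 1.97 and 1.81 (log2 difference 2.90, SE 0.12). The 5 Rag partners and folliculin genes were all called higher in SK-MEL-28, with a median of 1.41. Of 7 amino acid transporters, 5 were called lower and 0 higher, among them SLC36A4 (log2 difference -2.28, SE 0.11) and SLC38A2 (-1.86, SE 0.09). The sum of the melanocyte lineage markers, 8644 CPM with siNC in SK-MEL-28 and 548 in A375, differed between the same libraries, though SOX10 differed little. The part of these markers was not tested.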
